A study of Mus musculus with 4 samples.

Results

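The 33 genes described here encode kinases of the mitogen-activated protein (MAP) kinase cascades and the proteins that hold them together. They were taken by symbol from a fixed list and are 33 of 55536 annotated genes. They comprise 6 MAP kinase kinase kinases (MAP3Ks), 2 RAF kinases, the 3 TAB adaptors and the scaffold Ksr1, 6 MAP kinase kinases (MAP2Ks), 6 MAP kinases (MAPKs) and 9 kinases that MAPKs activate. RNA came from the cytosolic fraction of bone marrow-derived macrophages of C57BL/6J mice, primary cells grown out of marrow. The cells had been stimulated for 15 minutes with lipid A, the part of bacterial lipopolysaccharide that Toll-like receptor 4 recognises, at 100 ng/ml. Ribosome-depleted total RNA of 4 libraries was sequenced, labelled as biological replicates of 1 group and all under the same donor record. No unstimulated library was analysed here, so every value is a level in stimulated cells and not a response.

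In a MAP kinase cascade, a MAP3K phosphorylates a MAP2K, which phosphorylates a MAPK on a threonine and a tyrosine of its activation loop. The active MAPK phosphorylates transcription factors and further kinases, among them those that stabilise or translate cytokine mRNAs. In macrophages, Toll-like receptor signalling reaches the ERK, JNK and p38 branches largely through Map3k7 (TAK1), with its TAB adaptors, and Map3k8 (TPL2). Activation is by phosphorylation, which RNA levels do not measure.

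The ERK, JNK and p38 branches differ in the residue between the threonine and the tyrosine, though ERK5 shares that of ERK1. The coding sequences below, from the GENCODE M21 transcripts of mm10, show the codons in which these branches differ. The levels that follow are grouped by tier. Capitals mark the Thr-X-Tyr codons, in 51 bases of the leading coding transcript. Mapk3 (ERK1) and Mapk7 (ERK5) have a glutamate codon in the middle, Mapk8 and Mapk9 (JNK1 and JNK2) a proline codon and Mapk14 (p38 alpha) a glycine codon.
Mapk3: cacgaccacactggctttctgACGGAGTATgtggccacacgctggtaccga
Mapk7: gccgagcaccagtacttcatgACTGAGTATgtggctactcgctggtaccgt
Mapk8: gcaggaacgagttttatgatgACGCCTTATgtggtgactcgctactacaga
Mapk9: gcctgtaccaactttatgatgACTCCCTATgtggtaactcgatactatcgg
Mapk14: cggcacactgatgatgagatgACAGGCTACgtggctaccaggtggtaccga

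Libraries held between 30088678 and 47961117 expected counts on annotated genes, with replicate 1 the shallowest. A count of 0 allowed up to 0.0997 CPM there, a count scaled to the library total, from counting error alone. All 15 macrophage markers had a mean of at least 1 TPM, the length-corrected abundance unit, while the natural killer genes Gzma and Prf1 were at 0 in every library. Some markers from lists of other cell types were present, such as Cd28 at 85.4, Il7r at 30.1, Cd4 at 19.7, S100a9 at 14.8 and Ighm at 4.21 TPM on average. The stromal genes Dcn and Pdgfra had 81 and 64 counts in replicate 3 and 0 in the others. Replicate 1 stood apart from the rest, and results that rest on it are given with its values. The 7SL RNA genes took between 57.1% and 63.3% of all TPM, which lowers every TPM given here. In bulk RNA, fewer cells of a type and less RNA per cell cannot be told apart.

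Most cascade genes were present at moderate levels. Of the 33, 31 averaged 1 TPM or more, and the median member stood at 3.76 ± 0.26 on the log2(TPM + 1) scale (SD, n = 4), where the median of the 10329 genes with at least 1 TPM was 3.09 ± 0.29. Replicate 4 held the highest TPM of 21 members, replicate 1 of 11 and replicate 3 of 1. The 7SL share was lowest in replicates 4 and 1, at 57.1% and 57.6%, against 63.3% and 60.9% in replicates 2 and 3. With TPM rescaled without the 7SL genes, the median member stood at 5.01 ± 0.17, so part of the spread in TPM moved with that share. The summed level was 191 TPM for the 9 MAPK-activated kinases, 94.97 for the MAPKs, 83.0 for the MAP2Ks and 70.6 for the MAP3Ks.

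**Figure D1:**
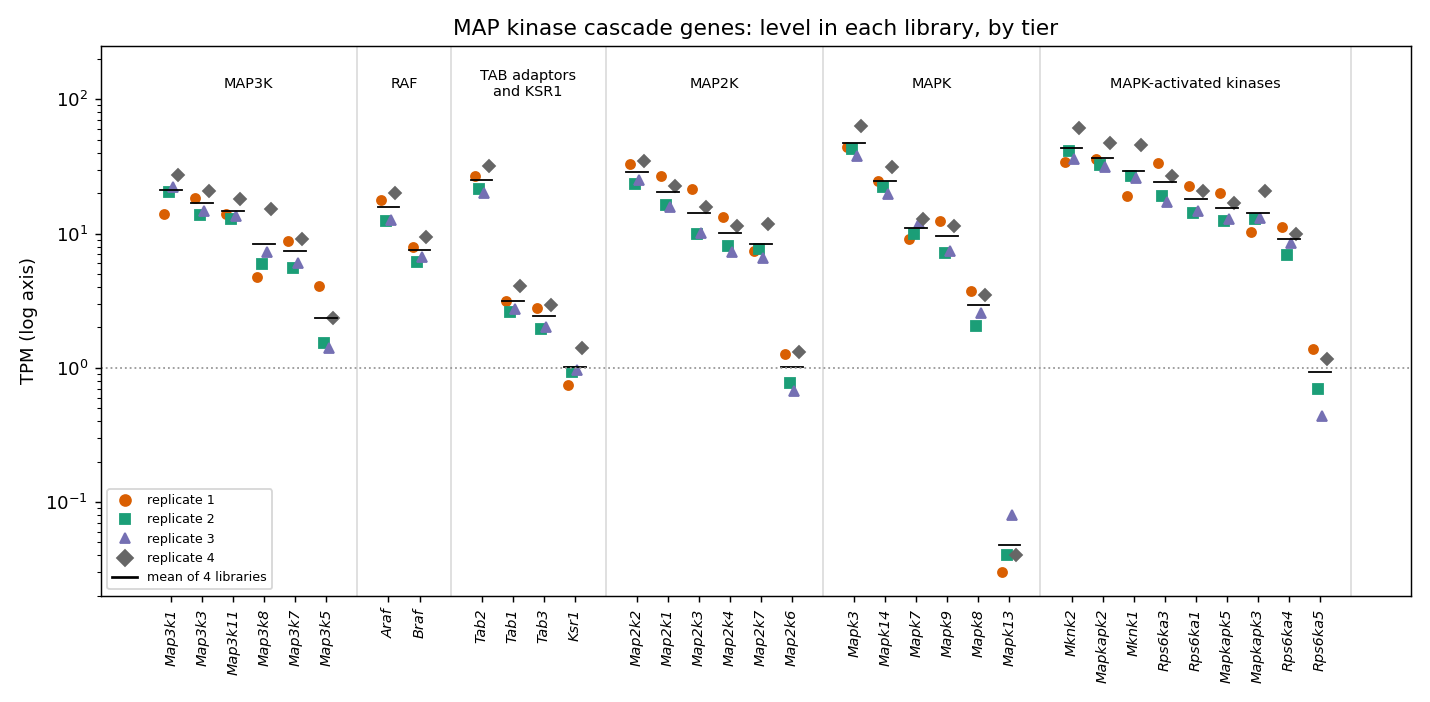
Level of each member in each library, in TPM on a log axis, grouped by tier and ordered by mean. Points are the 4 libraries, short lines their mean and the dotted line 1 TPM. Mapk3 and Mknk2 are highest and Mapk13 lies far below 1 TPM in every library.

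Among the MAP3Ks, Map3k1 (MEKK1) was highest, at 14.0, 20.6, 22.2 and 27.4 TPM in replicates 1, 2, 3 and 4. It was followed by Map3k3 (MEKK3) at 16.9 ± 3.18 TPM and Map3k11 (MLK3) at 14.6 ± 2.43 TPM (SD, n = 4). Map3k1 exceeded Map3k3 in 3 of 4 libraries, by a log2 ratio of 0.29 ± 0.46, so their order was not larger than its spread. Map3k7 stood at 8.77, 5.52, 6.06 and 9.09 TPM, and Map3k8 at 4.77, 5.92, 7.26 and 15.3 TPM. Map3k8 was therefore above Map3k7 in 3 of 4 libraries, and in 1 of 4 on the target tables, a second quantification made directly from reads. Map3k5 (ASK1), a stress-responsive MAP3K, was lowest, at 4.07, 1.54, 1.41 and 2.34 TPM.

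The TAB proteins link Map3k7 to ubiquitin chains or activate it, and they were very unequal. Tab2 stood at 27.0, 21.6, 20.0 and 32.1 TPM, while its paralog Tab3 stood at 2.79, 1.94, 2.01 and 2.91 TPM. Tab2 was 10.4-fold higher on average, between 9.67-fold and 11.1-fold in single libraries. Tab1, an activator of Map3k7 that is unrelated to the other two in sequence, stood at 3.13 ± 0.65 TPM (SD, n = 4).

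Of the RAF kinases, which start the ERK branch, Araf stood at 17.6, 12.4, 12.7 and 20.1 TPM and Braf at 7.98, 6.18, 6.69 and 9.46 TPM. Araf was 2.06-fold higher per length, in 4 of 4 libraries. In CPM, which is not corrected for length, the order turned over, with a log2 ratio of -0.88 and Araf below Braf in 4 of 4, because the leading Braf transcript has 9728 bases and that of Araf 2358. The scaffold Ksr1, which gathers RAF, MEK and ERK, was near the limit used for detection, at 0.74, 0.93, 0.96 and 1.40 TPM.

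All MAP2Ks reached a mean of 1 TPM, Map2k6 only just. The ERK kinases Map2k2 (MEK2) and Map2k1 (MEK1) led, at 28.9 ± 5.60 and 20.4 ± 5.38 TPM (SD, n = 4). Map2k1 was below Map2k2 in 4 of 4 libraries, at 0.70-fold on average, though in CPM in 2 of 4 only. The p38 kinases differed most. Map2k3 (MKK3) stood at 21.3, 9.89, 10.1 and 15.7 TPM and Map2k6 (MKK6) at 1.26, 0.77, 0.67 and 1.32 TPM, a 14.1-fold mean difference with a range from 11.9-fold to 16.9-fold. The JNK kinases Map2k4 (MKK4) and Map2k7 (MKK7) were close, at 10.03 ± 2.81 and 8.35 ± 2.33 TPM. Their log2 ratio was 0.84, 0.08, 0.16 and -0.05 in replicates 1 to 4, so on these tables the order was not larger than the spread and the mean difference rested on replicate 1. On the target tables Map2k4 was above Map2k7 in 4 of 4 libraries, by 0.52 ± 0.25, as it was in CPM and over protein-coding transcripts alone. The model Gm49320 overlaps 35.2% of the exonic bases of Map2k7 on the same strand, so reads of Map2k7 could be split. Gm49320 was assigned 3.66 counts on average, where Map2k7 had between 1098 and 1953 in single libraries.

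Among the MAPKs, Mapk3 was highest at 44.2, 42.7, 37.5 and 63.1 TPM. Mapk14 stood at 24.8, 22.2, 19.8 and 31.4 TPM, below Mapk3 in 4 of 4 libraries by a log2 ratio of 0.93 ± 0.07. Mapk13 (p38 delta), its paralog, had 2, 4, 6 and 2 counts in the whole libraries, about the 3 counts taken as the floor, so no fold between them is given. Mapk9 stood at 12.4, 7.11, 7.40 and 11.3 TPM and Mapk8 at 3.71, 2.03, 2.56 and 3.48 TPM. Mapk8 was 0.31-fold of Mapk9, between 0.29-fold and 0.35-fold, which is among the steadiest ratios. Mapk7 stood at 9.18, 9.89, 12.1 and 12.8 TPM and its order with Mapk9 differed between libraries.

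The kinases that MAPKs activate held the highest median of any tier, 4.18 ± 0.28 on the log2(TPM + 1) scale (SD, n = 4). The MNK kinases phosphorylate the cap-binding factor eIF4E. Mknk2 stood at 34.0, 41.5, 35.8 and 61.0 TPM, and Mknk1 at 19.0, 26.9, 26.1 and 45.9 TPM, below it in 4 of 4 libraries. Mapkapk2 (MK2), the p38 target that stabilises cytokine mRNAs, stood at 35.6, 32.3, 31.1 and 47.1 TPM. Its paralog Mapkapk3 stood at 10.2, 12.8, 13.0 and 20.6 TPM, 2.64-fold lower on average. Mapkapk5 stood at 15.5 ± 3.72 TPM. The models Adam1a and Gm42878 overlap 56.5% and 56.4% of its exonic bases on the same strand, so its reads could be split. They were assigned 40.9 and 29.4 counts on average, where Mapkapk5 had between 852 and 1139 in single libraries.

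Of the RSK kinases, the ERK targets, Rps6ka3 (RSK2) stood at 33.6, 19.2, 17.3 and 26.8 TPM and Rps6ka1 (RSK1) at 22.7, 14.1, 14.6 and 20.7 TPM. Rps6ka1 was below Rps6ka3 in 4 of 4 libraries, at 0.76-fold. The MSK kinases phosphorylate chromatin proteins and CREB. Rps6ka4 (MSK2) stood at 11.2, 6.89, 8.45 and 9.93 TPM and Rps6ka5 (MSK1) at 1.39, 0.70, 0.44 and 1.16 TPM, a 10.7-fold mean difference. A processed transcript, CAAA01066123.1, overlaps 18.2% of the exonic bases of Rps6ka4 on the same strand and had 11.1 TPM, so these values are uncertain.

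Over the 12 pairs, 11 kept 1 order in all 4 libraries. For each of those 11, the mean ratio was as far from 0 in 2 of the 16 sign patterns of an exact two-sided permutation, the fewest possible with 4 libraries, and the permutation p adjusted over the 12 pairs was 0.136. No pair can therefore pass 0.05 in this design. For Map2k4 and Map2k7 the exact permutation p was 0.25. The SD of the log2 ratio ran from 0.10 for Araf and Braf to 0.58 for Rps6ka4 and Rps6ka5, apart from the pair with Mapk13.

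**Figure D2:**
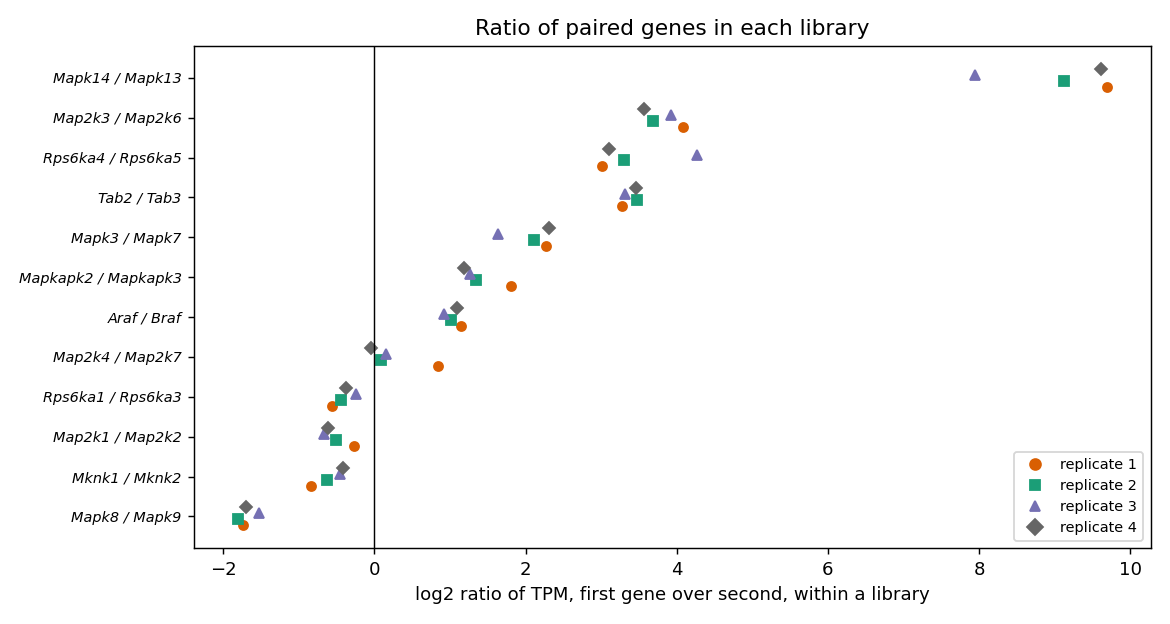
Log2 ratio of TPM between paired genes, first gene over second, in each of the 4 libraries. Points right of 0 mean more of the first gene. Map2k4 and Map2k7 straddle 0, and the topmost pair rests on 2 to 6 counts of Mapk13.

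The paralogs Mapk8 and Mapk9 also differed in the shares of 2 mutually exclusive coding exons. Both exons are 72 bases long and code for the same stretch of the kinase domain, where JNK forms are known to differ in substrate choice. The sequences are shown because the choice between them is the measurement, read along the transcript from GENCODE M21, with capitals where the exons of 1 gene differ. The Mapk8 exons lie at chr14:33390673-33390744 and chr14:33390242-33390313 on the minus strand, and those of Mapk9 at chr11:49873836-49873907 and chr11:49874264-49874335 on the plus strand, in mm10.
Mapk8 upstream exon: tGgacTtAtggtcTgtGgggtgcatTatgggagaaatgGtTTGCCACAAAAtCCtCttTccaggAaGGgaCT
Mapk8 downstream exon: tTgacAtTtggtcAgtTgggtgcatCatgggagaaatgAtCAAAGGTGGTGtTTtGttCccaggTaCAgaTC
Mapk9 upstream exon: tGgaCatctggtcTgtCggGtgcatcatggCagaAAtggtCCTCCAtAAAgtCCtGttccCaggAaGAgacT
Mapk9 downstream exon: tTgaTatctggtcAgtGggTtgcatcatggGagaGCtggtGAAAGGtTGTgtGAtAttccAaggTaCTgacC

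The upstream exons of the 2 genes share 59 of 72 bases and the downstream exons 57, more than the 45 and 47 shared by the exons within Mapk8 and within Mapk9. In Mapk8 the upstream exon was in 36.0%, 39.2%, 45.0% and 37.3% of the TPM of transcripts that carry either exon. In Mapk9 it was in 6.40%, 8.58%, 4.53% and 11.2%. The libraries of both genes did not overlap, and the downstream exon led in both. The levels behind these shares were low. Transcripts with the upstream exon stood at 1.27, 0.76, 0.98 and 1.07 TPM in Mapk8. Those of Mapk9 stood at 0.76, 0.58, 0.30 and 1.13 TPM, where 1 TPM was the limit used for detection. On the target tables the upstream share was 28.3% ± 2.04 in Mapk8 and 10.8% ± 4.71 in Mapk9 (SD, n = 4), again without overlap. These shares are estimates by the authors' quantification, not counts of reads across the junctions.

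Mapk14 has a similar choice between exons of 80 bases, at chr17:28737011-28737090 and chr17:28740680-28740759 on the plus strand. They share 39 bases, and capitals mark those that differ.
Mapk14 upstream exon: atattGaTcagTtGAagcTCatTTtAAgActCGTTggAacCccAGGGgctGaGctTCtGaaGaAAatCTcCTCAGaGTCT
Mapk14 downstream exon: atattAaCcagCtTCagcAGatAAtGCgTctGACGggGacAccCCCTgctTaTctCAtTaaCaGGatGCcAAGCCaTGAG
The upstream exon was in 82.0%, 92.3%, 91.8% and 87.8% of this TPM, or 88.5% ± 4.78 (SD, n = 4). The target tables gave 88.5% ± 4.37, with replicate 1 lowest in both. In Map3k7, a cassette exon of 81 bases in the coding sequence was in 36.4%, 36.8%, 37.0% and 30.6% of the TPM of transcripts that span its site, and in 41.2% ± 3.18 on the target tables.

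**Figure D3:**
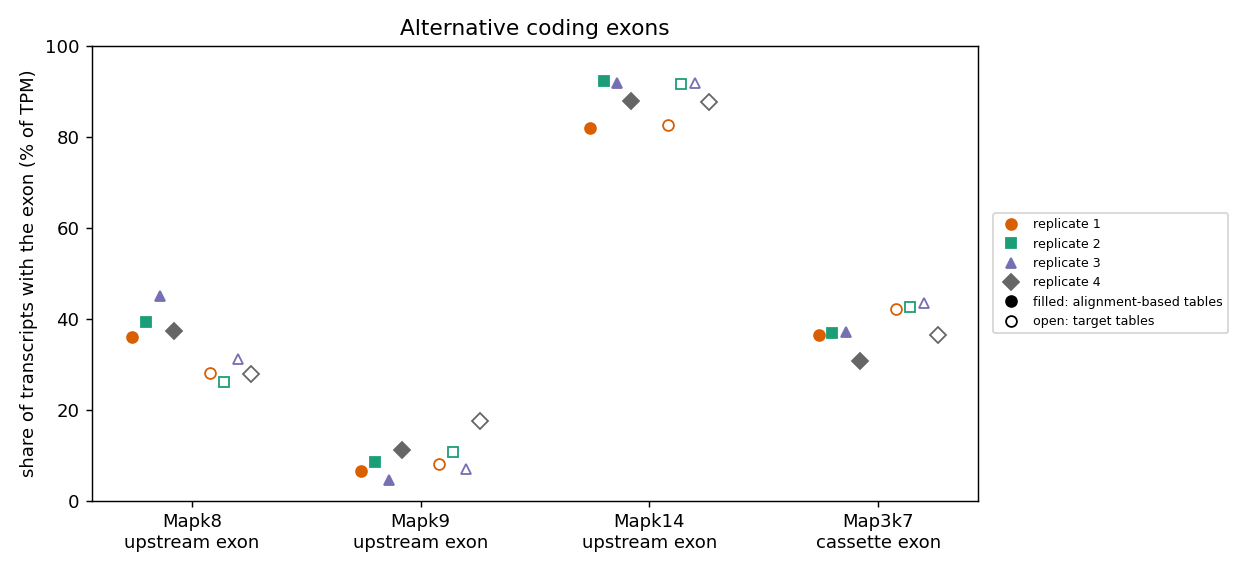
Share of TPM in transcripts with the named exon, in percent, per library. Filled points are the alignment-based tables and open points the target tables. The Mapk8 upstream exon lies between 26.2% and 45.0% and that of Mapk9 between 4.53% and 17.5%.

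The JNK genes also end in longer or shorter reading frames. Forms with 423 codons held 61.7% ± 3.87 of the Mapk9 TPM in full-length coding forms (SD, n = 4). For Mapk8, forms with 427 codons held 21.5%, 36.6%, 9.63% and 36.6%, a spread that was smaller on the target tables, at 30.7% ± 5.06. The leading transcript of Mapk8 also differed between the tables, as it did for Map3k7, Map2k7 and Mknk2. For the other 29 members both tables had the same leading transcript. All 33 leading transcripts were protein coding. On average the leading transcript held over 90% of its gene's TPM in 10 members, among them Mapkapk2 at 99.8% ± 0.22, and under 50% in 6, among them Mapkapk5 at 31.7% ± 4.77.

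The share of a gene's TPM in protein-coding transcripts had a median of 95.03% ± 2.41 over the members (SD, n = 4). In Map3k11, the lowest member on these tables, it was 65.0%, 55.8%, 59.6% and 63.8%. On the target tables Map3k11 averaged 78.1%, and Rps6ka5 was lowest with 39.9%. In Map3k8 it was 93.3% and 92.4% in replicates 1 and 2 but 78.4% and 77.1% in replicates 3 and 4. Mapk8 split the same way, with 95.2%, 95.6%, 85.2% and 82.2%. Replicates 3 and 4 were both below replicates 1 and 2 in 16 of the 28 members with at least 1 TPM and a noncoding transcript, and both above in 0. Over 7940 such genes the shares were 51.5% and 4.47%, so the members were near all genes. Malat1, a nuclear noncoding RNA, was at 306, 242, 984 and 941 TPM in the same libraries. Its part in this split was not tested.

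**Figure D4:**
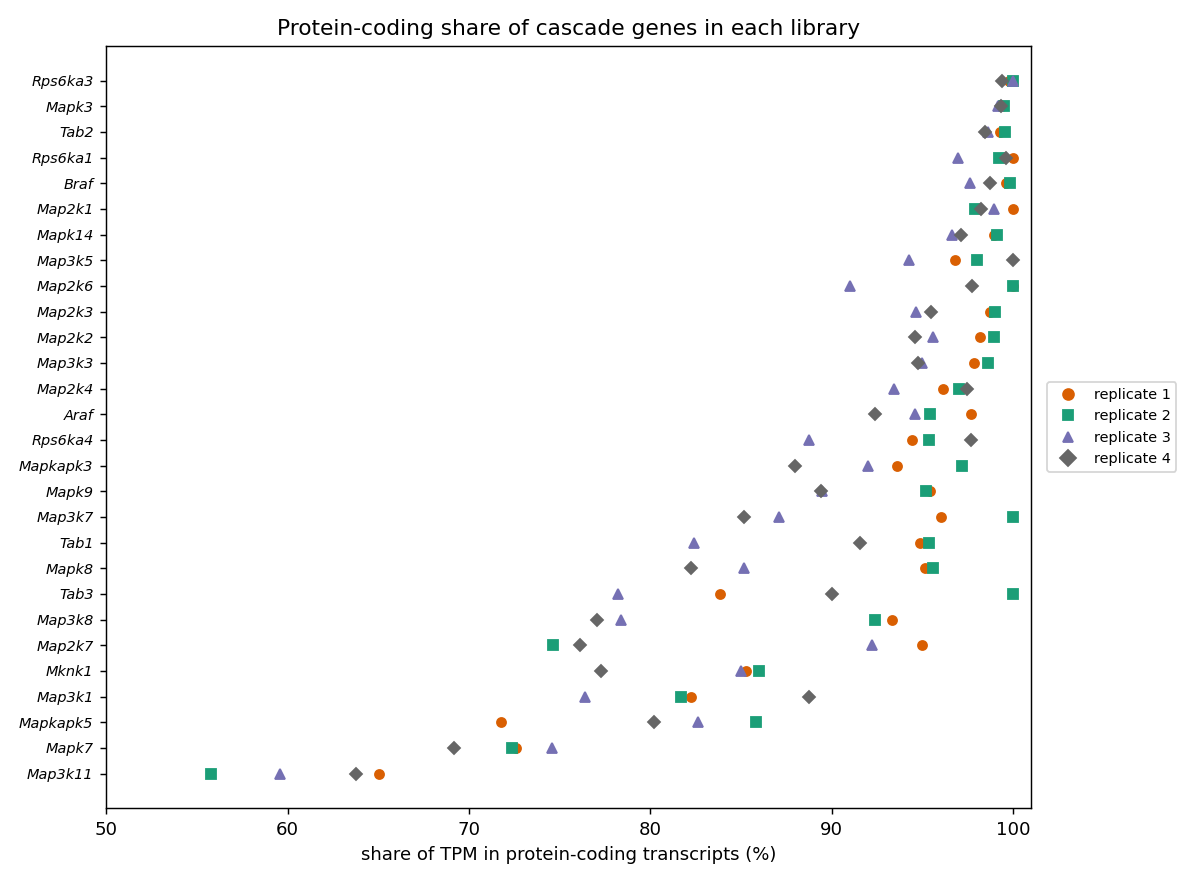
Share of each gene's TPM in protein-coding transcripts, in percent, for the 28 members that average 1 TPM or more and have an annotated noncoding transcript. Points are the 4 libraries. In 16 members, replicates 3 and 4 both lie below replicates 1 and 2.

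To compare libraries, counts were scaled by library size with TMM and given as CPM. Of the 33 members, 32 passed the filter of a mean count of 10, and Mapk13 did not. Their median SD of log2 CPM was 0.163, against 0.255 for the 14041 genes tested and 0.194 for those that average 100 counts or more. By tier, the median SD was 0.325 for the MAP3Ks, above that of all genes, and 0.25 for the MAPK-activated kinases. It was 0.177 for the MAP2Ks, 0.159 for the MAPKs, 0.0879 for the 2 RAF kinases and 0.0815 for the TAB adaptors with Ksr1. Without replicate 1 the medians were 0.0825 for the members and 0.134 for all genes. The variation exceeded Poisson counting in 28 of 32 members, where 82.8% of all genes tested did. Without replicate 1 it did so in 19 of 32 members and in 60.1% of all genes. With all libraries, the 4 members that did not were Tab1, Tab3, Map2k2 and Map2k6.

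The steadiest members were Map2k2, with 74.3, 71.3, 74.8 and 70.8 CPM and an SD of 0.04 log2 units, and Map3k3, with 87.1, 89.5, 93.0 and 87.4 CPM and an SD of 0.04. Araf, Tab2 and Tab3 followed with SDs of 0.06, 0.07 and 0.07. The most variable was Map3k8, with 16.5, 27.5, 31.7 and 45.2 CPM and an SD of 0.60, lowest in replicate 1 and highest in replicate 4. Rps6ka5 came next, with 10.7, 6.41, 4.45 and 7.26 CPM and an SD of 0.52. Map3k5, Map3k1 and Mknk1 had SDs of 0.51, 0.48 and 0.48.

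Replicate 1 differed from the other 3 libraries in 8 members, 4 higher and 4 lower, in the quasi-likelihood test of edgeR after Benjamini-Hochberg adjustment. The 4 members in each direction are 12.5% of 32, where 14.5% of all genes tested were higher and 7.58% lower. Neither share was tested against that of all genes. Replicate 1, alone in its arm, adds nothing to the estimate of spread, which comes from the other 3 and is assumed to hold for it too. The libraries are labelled biological replicates, but the labels do not say whether they came from separate cultures or animals. The p-values set replicate 1 only against how far the other 3 libraries scatter, and that scatter may be technical. The split into higher and lower members changed with the size factors and test of DESeq2 and with the libraries kept. The shares of all genes by direction under those settings are not given here, so no excess in either direction is read from it.

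The higher members came from the MAP3K, MAP2K and RSK tiers. Map3k5 had 30.9 CPM in replicate 1 and 15.7, 14.1 and 16.7 in the others, a log2 fold of 0.99 ± 0.12 (SE, edgeR adjusted p = 0.00779). Map2k3 had 62.3 CPM against 39.5, 39.4 and 41.3, a log2 fold of 0.64 ± 0.08 (edgeR adjusted p = 0.00941). In both, replicate 1 lay apart and the others were close together. Rps6ka3 had 299 CPM against 225, 203 and 214, a log2 fold of 0.48 ± 0.10 (edgeR adjusted p = 0.0312), and lost the call without replicate 3 or 4, at adjusted p of 0.0662 and 0.0806. Map2k1 had 89.5 CPM against 72.7, 70.5 and 68.0, a log2 fold of 0.35 ± 0.08 (edgeR adjusted p = 0.039). That call was lost under 5 of 7 alternatives, with an edgeR or DESeq2 adjusted p between 0.0307 and 0.15 over all 7.

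The lower members were Map3k1 and 3 kinases that MAPKs activate. Map3k1 had 118 CPM in replicate 1 and 231, 236 and 226 in the others, a log2 fold of -0.97 ± 0.10 (SE, edgeR adjusted p = 0.00524). Mknk1 had 57.6 CPM against 112, 106 and 119, a log2 fold of -0.96 ± 0.10 (edgeR adjusted p = 0.00602). Both were at about the same distance below the rest. Mapkapk3 had 38.8 CPM against 66.7, 66.3 and 69.1, a log2 fold of -0.80 ± 0.08 (edgeR adjusted p = 0.00587). Mknk2 had 150 CPM against 250, 214 and 246, a log2 fold of -0.66 ± 0.13 (edgeR adjusted p = 0.0256), and lost the call on the target tables, at adjusted p = 0.1. Map3k8, at -1.07 ± 0.31 (edgeR adjusted p = 0.0662), did not pass, but passed under 5 of 7 alternatives, with an edgeR or DESeq2 adjusted p between 0.000977 and 0.0964.

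**Figure D5:**
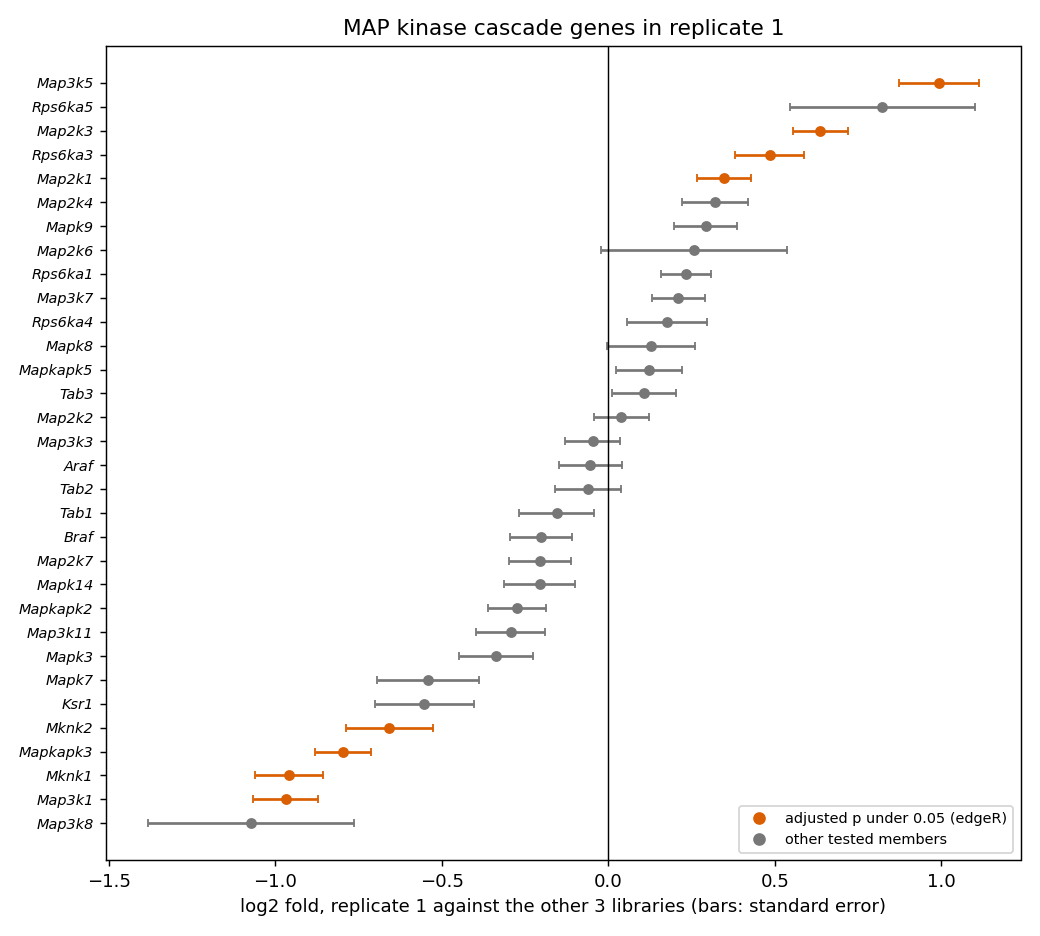
Log2 fold of replicate 1 against the other 3 libraries for the 32 tested members, with standard errors from edgeR. Orange points passed an adjusted p of 0.05. Map3k5, Map2k3, Rps6ka3 and Map2k1 lie to the right and Map3k1, Mknk1, Mapkapk3 and Mknk2 to the left.

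No member was called in replicates 2, 3 or 4, where edgeR's quasi-likelihood test called 0% of all genes tested in either direction. At an unadjusted p under 0.05 edgeR had 0 members in each of these replicates, and 277, 135 and 104 of the 14041 genes. The Wald test of DESeq2 called 0 members too, and 8, 3 and 17 genes. In these comparisons replicate 1 is among the 3 libraries that set the spread, and the common coefficient of variation was 0.327 with it and 0.222 without, so the counts of 0 do not show that replicates 2, 3 and 4 are alike. With replicate 1 left out, edgeR called 0 of 32 members in each of the 3, and 82, 0 and 0 of 14306 genes.

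Other genes of the pathway were read beside the members in replicate 1. Of 34 further cascade kinases, 26 were tested, with a median log2 fold of -0.01 where all genes tested had -0.01. Map3k20 (ZAK) was higher by 0.68 ± 0.13 (SE). Abundant kinases of this list included Mapk6 (ERK3) at 33.4 ± 5.68 and Taok3 at 28.5 ± 4.82 TPM (SD, n = 4). The median SD of the list, 0.156, was close to that of the members. The 12 scaffolds tested had a median log2 fold of -0.06, and Arrb2 was higher by 0.42 ± 0.08.

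The dual-specificity phosphatases, which remove both phosphates from MAPKs, varied more. The 10 tested had a median log2 fold of 0.42 in replicate 1, where all genes tested had -0.005, and their median SD was 0.47. Dusp6, an ERK phosphatase, had 208 CPM in replicate 1 and 16.5, 18.9 and 19.9 in the others, a log2 fold of 3.49 ± 0.11 (SE, edgeR adjusted p = 0.00142). Dusp4, Dusp7 and Dusp16 were higher by 1.87, 0.87 and 0.52. Dusp1, the most abundant, did not pass, with 98.7, 65.4, 118 and 136 CPM.

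The 24 genes upstream of the cascades had a median log2 fold of -0.05 in replicate 1, where all genes tested had -0.005. They went both ways, with Ube2n, a ubiquitin-conjugating enzyme, at 0.66 ± 0.08 and Ticam2, a Toll-like receptor 4 adaptor, at -1.11 ± 0.18 (SE). The 20 immediate early genes tested had a median log2 fold of -0.39 in replicate 1 and a median SD of 0.567. Against the other libraries in turn, the median was -0.77 in replicate 2, 0.56 in replicate 3 and 0.43 in replicate 4. Single genes of this list went both ways in replicate 1, with Myc at 2.84 and Egr3 at -4.18. Fos, a target of the cascades, had 417, 195, 655 and 496 CPM and did not pass. Replicate 1 also had more RNA of the 20 proliferation genes, with a median log2 fold of 1.60, and 504 summed TPM against 123 to 176 in the rest. The platelet factor gene Pf4 was higher by 2.11 ± 0.15 as the one member of the megakaryocyte list at 1 TPM, out of 6. The 15 macrophage markers had a median log2 fold of -0.13 in replicate 1, with Msr1 higher by 1.70, Itgam by 1.02, C1qa by 1.00 and Mrc1 by 0.86. Mertk was lower by a log2 fold of -0.81. Cd4, Cd28 and Ighm were lower too, at -1.16, -0.62 and -3.39. The part of these differences in the members' values was not tested.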

How the data were processed

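Gene tables hold expected counts and TPM per gene, as deposited by the authors. Transcript tables add the percent of a gene's TPM in each isoform (per the file headers), and a second set of target tables, estimated directly from reads, gives estimated counts and TPM as deposited. The notes deposited with the files name mm10 and GENCODE M21, whereas the sources used here do not give the aligner, quantifiers or strand setting. The percent of expected counts on features that name no gene was 0.0267 to 0.407, and these were left out. Totals of 30088678 to 47961117 counts set the precision. Floors of 3 counts account for counting error alone, because PCR reads that carry no molecular identifier need not be independent.

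Rounded expected counts were used. Genes averaging 10 counts or more were scaled by TMM and tested in edgeR 4.0.16 (R 4.3.3), each replicate against the other 3, at an adjusted p of 0.05. The lone library adds no residual degree of freedom. Standard errors were derived from each fold and its F statistic. A Poisson fit's deviance served as the test of variation beyond counting, and SDs are of log2 CPM with a prior count of 2. Pairs were compared within a library by log2 TPM ratio and exact sign-flip permutation. Fits were tested on simulated data, where 1 library against 3 recovered fewer 2-fold decreases than 2-fold increases. DESeq2 1.42.0 was an alternative. Python 3.11.15 with biopython 1.88, matplotlib 3.10.9, scipy 1.17.1, pandas 2.3.3 and numpy 2.4.6 did the rest. Members and lists were chosen with earlier results of these data known. Values are named for members called in a replicate, the highest and lowest of each tier, the 5 largest and 5 smallest SDs and each pair, and for other lists the 3 most abundant genes and the 2 with the largest SD, of which some are not reported here. Called genes of the other lists were picked with their values in view.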

Additional observations from a re-analysis of the deposited data

Results flagged for a closer look

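In 6 of 48 sets of 4 values (TMM-scaled CPM of 32 members, 12 pair ratios and 4 exon shares), the gap between the most extreme library and its neighbour exceeded Dixon's critical share of the whole range for 4 values. Chance flags about 1 in 20 such sets, but in these libraries the same rule picks out 13.6% of all genes tested, 11.6% with replicate 1 as the extreme, against 5 of 32 members, or 15.6%. Replicate 1 was the extreme library in 5 of the 6. It was lowest for Map3k1, at 118 CPM, and for Mapkapk3, at 38.8 CPM, and highest for Map3k5, at 30.9 CPM, for Map2k3, at 62.3 CPM, and for Rps6ka1, at 90.1 CPM. The first 4 of these were also called by edgeR, while Rps6ka1 did not pass, at a log2 fold of 0.23 ± 0.07 (SE, edgeR adjusted p = 0.084). The cassette exon of Map3k7 was lowest in replicate 4, at 30.6%.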

How the results depend on the processing

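No paired analysis was possible because the libraries form 1 group. The count of members called in replicate 1 ran from 7 to 11 over the alternatives and stayed within 1.5-fold of 8. Leaving out each replicate in turn gave 7 to 9 calls there, 19 to 28 members varying beyond counting, a median SD of 0.0825 to 0.187, a median level of 3.66 to 3.87, 11 to 12 pairs of 1 order, 27 to 29 shared leading transcripts and a median coding share of 94.1% to 95.8%. Map3k1, Map3k5, Map2k3, Mapkapk3 and Mknk1 were called under all 7 alternatives run for replicate 1. The median level went to 2.45 on the target tables and to 5.01 without the 7SL genes, and the median coding share to 92.3% on the target tables. There 32 of the 33 member levels moved by more than their SD, so absolute TPM depend on the quantification. In CPM the log2 ratio turned to -0.88 for Araf and Braf and to 0.038 for Map2k1 and Map2k2, since that unit is not corrected for length. Exon shares on the target tables were compared after seeing the data. With 1 group of 4 libraries, depth limits Mapk13, at 2 to 6 counts.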
